A study of Mus musculus with 36 samples.

Results

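The expression of 8 genes of H3K9 methylation and heterochromatin protein 1 (HP1) was followed through the differentiation of Xmas mouse embryonic stem cells (mESCs). The genes were chosen by name and not by their values: the histone methyltransferases Setdb1, Ehmt1, Ehmt2 and Suv39h2, the corepressor Trim28, and the HP1 genes Cbx1, Cbx3 and Cbx5. All 8 have a row among the 25965 genes of the deposited table, and all 8 passed the filter on low values that left 14612 genes for testing. Xmas mESCs are female C57/Bl6 lines derived from blastocysts, in which a GFP reporter marks one X chromosome and an mCherry reporter the other, both inserted at Hprt. No treatment other than differentiation is given in the labels. Day 0 cells were grown in 2i and LIF, and from then on the medium was exchanged stepwise for serum medium without LIF. RNA was harvested on each of 9 days, from day 0 to day 8, with 4 libraries a day and 36 in all. On each day the libraries are, in the order of replicates 1 to 4, X14 double, X14 single, X18 double and X18 single, where X14 and X18 are lines. Neither the labels nor the RNA-seq methods define double and single. Elsewhere the study uses these words for cells positive for both reporters or for one, the latter arising in culture with the loss of an X chromosome (XO), so a single culture may carry one reporter allele only. Here the words serve as names of the libraries. Values below are listed in this order.

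Methylation of lysine 9 of histone H3 (H3K9) marks silent chromatin. Setdb1 is brought to its targets by Trim28, itself bound by KRAB zinc finger proteins, and in mESCs this pair silences endogenous retroviruses. Ehmt1 and Ehmt2 (GLP and G9a) form a heterodimer that places mono- and dimethylation in euchromatin, while Suv39h2 and its paralogue Suv39h1 trimethylate pericentromeric repeats. The HP1 proteins Cbx1 (HP1 beta), Cbx3 (HP1 gamma) and Cbx5 (HP1 alpha) bind methylated H3K9 through their chromodomains.

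Depth was modest, with 612740 to 2445826 reads in genes per library (median 1297944), so 3 reads corresponded to 1.04 to 3.90 RPM (reads per 1000000 reads of the library). Intervals and floors of this kind cover counting error only. The ES cell markers summed to 4594 ± 450 RPM on day 0 (SD, n = 4), 1686 ± 271 on day 4 and 522 ± 170 on day 8, and the primed state markers to 56.1 ± 34.5, 2380 ± 850 and 410 ± 197. Trophoblast and epithelial markers summed to 102 ± 19.3 RPM on day 0, 104 ± 38.4 on day 4 and 3170 ± 1109 on day 8. Most of the day 8 sum came from the keratins Krt18 (1742 ± 725) and Krt8 (1226 ± 358). Tfap2c then had 166 ± 74.5 RPM, Gata3 27.4 ± 13.9, Cdx2 7.48 ± 4.93 and Elf5 1.06 ± 0.894. On day 8 the endoderm, mesenchyme and neural markers summed to 12.9 ± 10.7, 81.1 ± 19.1 and 72.6 ± 14.8 RPM, with Afp, Ttr and Sox1 without a read. The cultures thus changed in cell state as well as time, and in bulk RNA fewer cells of a type and less RNA per cell cannot be told apart.

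The X14 libraries of day 0 went against their labels. Relative to the mean of the day, X-linked genes stood above autosomal genes by 0.13 to 0.69 (median difference, log2) in the other double libraries and below them, at -0.55 to -0.16, in the other single libraries. On day 0 the value was -0.71 in the library labelled X14 double and 0.45 in the one labelled X14 single. The members' changes from day 0 are given with and without these 2 libraries. Without them day 0 holds only X18, while the later days hold both lines, so line and day are mixed in those changes. The main fit has no term for label, so an exchange of labels within day 0 would not alter it. Libraries of a day also differed by transcript length: across 6828 genes the deviation from the mean of the day correlated with log2 exon length at r from -0.56 (day 5 replicate 1, the shallowest library) to 0.55 (the library labelled X14 double on day 0). Over the 36 libraries, the deviations of Setdb1, Cbx5 and Ehmt1 followed that length trend with r of 0.84, 0.84 and 0.82, against 0.54 for Ehmt2, 0.47 for Suv39h2, 0.44 for Trim28, 0.14 for Cbx3 and -0.23 for Cbx1. Each fold change was also recomputed with a trend on GC content and exon length removed from every library, an alternative chosen after seeing the data. That trend was fitted to deviations from the mean of all 36 libraries, not of the day. It therefore also removed shifts between days shared by genes of like length or GC content.

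Compared per length, Trim28 was the most abundant of the 8 transcripts, with 351 ± 171 RPKM (RPM per kilobase of exon; mean ± SD over 36 libraries). Next came Cbx1 with 76.3 ± 25.7, Cbx5 with 49.8 ± 14.9 and Ehmt2 with 33.1 ± 13.0. These were followed by Setdb1 (20 ± 5.73), Ehmt1 (13.6 ± 4.33), Suv39h2 (9.09 ± 2.65) and Cbx3 (5.34 ± 1.66). The libraries of Trim28 ranged from 132 to 747 RPKM and those of Cbx1 from 27.5 to 134, so that neighbours in this order overlapped. Cbx3 rested on only 9 to 56 reads per library, and 33.2% of its longest coding transcript matches other genes, 2 of them pseudogenes, at 97% identity or more, so its values are uncertain. At the same identity, matches to other genes cover 14.4% of the longest coding transcript of Setdb1 (3 genes) and 6.49% of that of Suv39h2 (Dclre1c). Setdb1 shares 75 exon bases with Cers2, and Suv39h2 shares 357 with Dclre1c, both on the opposite strand. As the sources do not say whether counting used the strand, reads there cannot be assigned.

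The genes lie on different chromosomes, except for Ehmt1 (chr2:24790769-24919609) and Suv39h2 (chr2:3455815-3475031), both on the minus strand of chromosome 2 in mm10. Setdb1 is at chr3:95323525-95357202 (minus), Ehmt2 at chr17:34898469-34914052 (plus) and Trim28 at chr7:13024152-13031035 (plus). Cbx1 is at chr11:96789127-96808640 (plus), Cbx3 at chr6:51470360-51483704 (plus) and Cbx5 at chr15:103191544-103239816 (minus). Promoter windows of 300 bases, from 250 before to 50 after the gene start, were taken from RefSeq (GRCm38.p6) and matched all 8 genes. The letters GGGCGG, the core of the GC box, were found on either strand in the windows of 8 of 8 genes and in 35.7% of all 32851 windows. CCAAT was found in 2 of 8 (Setdb1 and Cbx5), against 37.4% of all windows. The members' windows hold 15 to 34 CG dinucleotides, where the median window holds 7. A match describes letters and not a bound site. The windows of the 4 genes whose highest and lowest daily means differ most (2.41-fold to 3.59-fold) are shown 5′ to 3′ on the gene's strand, with GGGCGG or its complement CCGCCC in capitals.
Ehmt1, chr2:24919560-24919859, minus strand: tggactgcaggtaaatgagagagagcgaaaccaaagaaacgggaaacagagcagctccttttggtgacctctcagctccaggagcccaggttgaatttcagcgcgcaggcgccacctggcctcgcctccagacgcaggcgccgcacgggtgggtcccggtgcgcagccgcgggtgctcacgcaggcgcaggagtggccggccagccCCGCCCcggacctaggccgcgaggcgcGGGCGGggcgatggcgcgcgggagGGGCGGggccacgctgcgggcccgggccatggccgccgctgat
Ehmt2, chr17:34898224-34898523, plus strand: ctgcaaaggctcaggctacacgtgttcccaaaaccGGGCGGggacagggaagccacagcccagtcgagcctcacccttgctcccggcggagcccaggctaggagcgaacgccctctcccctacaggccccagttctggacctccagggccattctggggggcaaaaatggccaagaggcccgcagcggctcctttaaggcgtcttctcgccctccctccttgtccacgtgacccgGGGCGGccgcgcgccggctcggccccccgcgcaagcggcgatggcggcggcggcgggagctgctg
Trim28, chr7:13023902-13024201, plus strand: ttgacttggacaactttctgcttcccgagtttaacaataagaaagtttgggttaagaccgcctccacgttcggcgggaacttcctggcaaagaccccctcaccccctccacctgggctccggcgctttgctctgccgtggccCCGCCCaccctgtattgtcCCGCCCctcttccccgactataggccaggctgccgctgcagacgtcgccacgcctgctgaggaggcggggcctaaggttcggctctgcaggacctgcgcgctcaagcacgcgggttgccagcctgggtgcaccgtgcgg
Cbx1, chr11:96788885-96789184, plus strand: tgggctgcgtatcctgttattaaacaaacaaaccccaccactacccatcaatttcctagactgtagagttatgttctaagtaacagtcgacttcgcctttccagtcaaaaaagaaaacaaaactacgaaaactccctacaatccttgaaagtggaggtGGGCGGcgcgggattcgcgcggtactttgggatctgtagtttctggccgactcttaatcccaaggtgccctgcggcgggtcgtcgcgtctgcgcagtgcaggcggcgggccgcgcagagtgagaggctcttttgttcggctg
The Ehmt1 window holds 3 such matches, the Ehmt2 and Trim28 windows 2 each, and the Cbx1 window 1.

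Over the 9 days 6 of the 8 genes varied (moderated F test in limma, adjusted p under 0.05 over all genes), beside 65.2% of all genes tested. The same count of 6, beside 57.3%, differed at least 2-fold between their highest and lowest days. Cbx1 varied most clearly (adjusted p = 2.4e-09), then Trim28 (1.7e-07), Ehmt2 (2.7e-05), Ehmt1 (2.5e-04), Cbx3 (9.7e-04) and Setdb1 (0.0138). Suv39h2 and Cbx5 missed the threshold in limma (adjusted p = 0.0568 and 0.123). Suv39h2 passed when the 4 cultures entered as a block (adjusted p = 0.0183), and Cbx5 passed without day 5 replicate 1 (adjusted p = 0.0157). Without the X14 libraries of day 0, both passed (adjusted p = 0.00833 and 0.0177). With most genes of the transcriptome varying, the members' count does not set them apart.

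**Figure D1:**
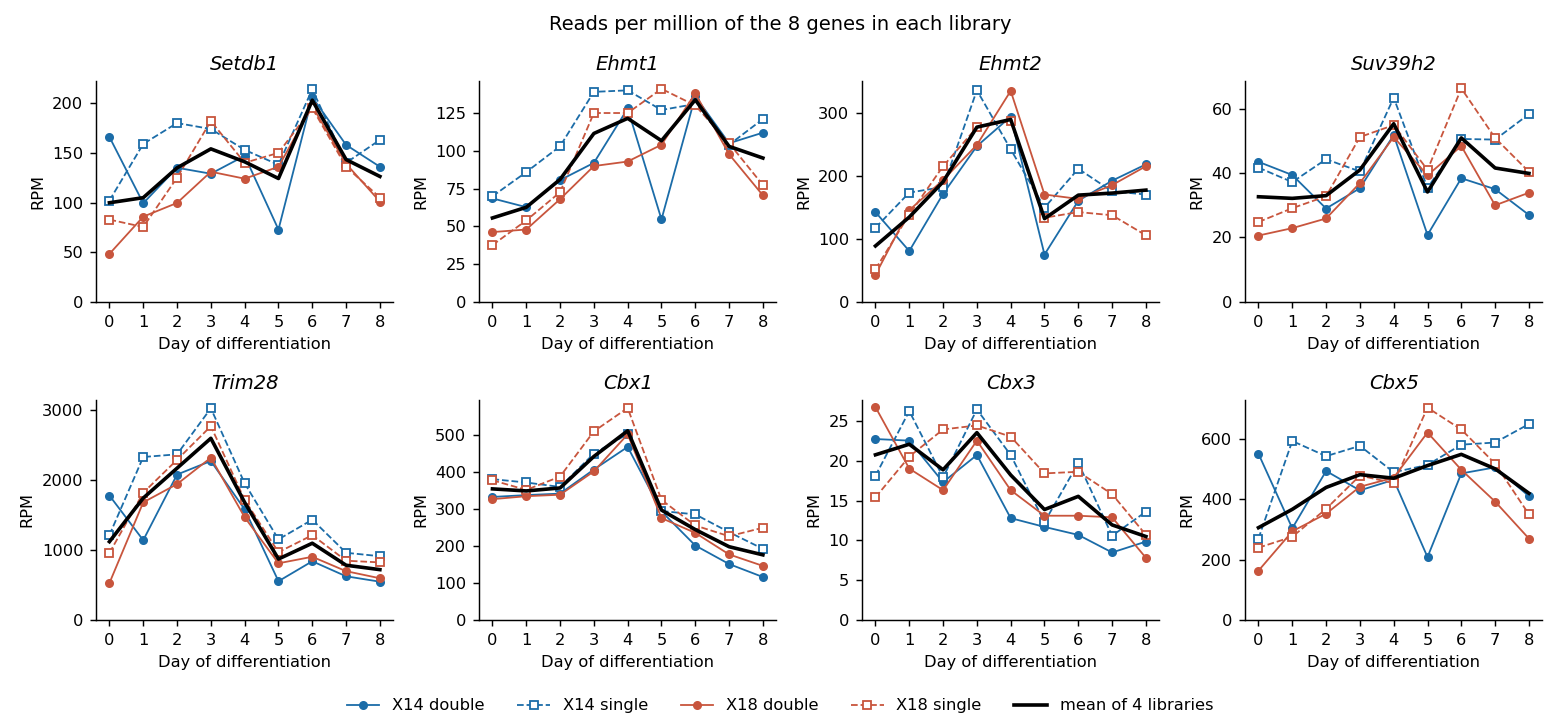
RPM (y axis from 0) of each gene against the day of differentiation. Blue marks line X14 and red line X18, filled circles the double and open squares the single libraries, and the black line the mean of the 4 libraries. Trim28 is highest on day 3 (mean 2593 RPM), Ehmt2 and Cbx1 on day 4 (291 and 512 RPM), and Setdb1 on day 6 (203 RPM).

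The first comparison, day 4 against day 0, spans the loss of the naive state. The euchromatic methyltransferases were higher on day 4, by 3.68-fold for Ehmt2 and 2.24-fold for Ehmt1, which encode the partners of one enzyme complex. Of the 8 genes, 5 rose and 0 fell, where 16.3% of all genes rose, 9.42% fell and 25.8% were called in all. The median change of all genes tested was 0.12 on the log2 scale. Ehmt1 and Ehmt2 were the 2 genes that also passed a minimum change of 2-fold, as did 18.6% of all genes. The libraries of these days did not overlap for 4 of the 8 genes and for 20.3% of all genes.

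Ehmt2 (G9a) had 143, 118, 43.2 and 52.1 RPM on day 0 and 295, 243, 336 and 288 RPM on day 4. Every day 4 library exceeded every day 0 library, although X14 began well above X18. The log2 change was 1.88 ± 0.29 (SE, limma adjusted p = 8.0e-06), and it was 2.61 ± 0.29 without the X14 libraries of day 0 (limma adjusted p = 3.8e-08). The intermediate days, with means of 135, 191 and 278 RPM on days 1, 2 and 3, formed a steady climb.

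Ehmt1 (GLP), the partner of G9a, had 68.5, 69.9, 46.2 and 37.6 RPM on day 0 and 128, 140, 92.9 and 125 on day 4. Again the groups did not overlap, and the log2 change was 1.16 ± 0.25 (limma adjusted p = 7.9e-04), or 1.53 ± 0.29 without the X14 libraries of day 0 (limma adjusted p = 1.5e-04). With the length and GC trend removed, the rise was 0.71 ± 0.17 for Ehmt1 and 1.18 ± 0.17 for Ehmt2, both still called (limma adjusted p = 0.00233 and 3.5e-06).

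Suv39h2 had 43.5, 41.7, 20.6 and 24.8 RPM on day 0 and 51.8, 63.4, 51.2 and 54.9 on day 4. The 4 higher values were all on day 4, and the log2 change was 0.83 ± 0.27 (limma adjusted p = 0.0241). Without the X14 libraries of day 0 it was 1.29 ± 0.31 (limma adjusted p = 0.00164). The counts behind it were low, from 20 to 94 reads on day 0. Quantile normalization ended the call (0.62, limma adjusted p = 0.0659).

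Setdb1 had 166, 102, 48.3 and 82.8 RPM on day 0 and 147, 153, 124 and 140 on day 4. The highest of these 8 libraries was the one labelled X14 double on day 0, which stood above all day 4 libraries. The log2 change of 0.63 ± 0.27 did not pass (limma adjusted p = 0.0762), but did with the replicate block (limma adjusted p = 0.046). Without the X14 libraries of day 0 it was 1.16 ± 0.28 (limma adjusted p = 0.00176).

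Trim28, which tethers Setdb1 and HP1 to KRAB zinc finger proteins, had 1778, 1215, 532 and 960 RPM on day 0 and 1581, 1952, 1469 and 1716 on day 4. The groups overlapped through the library labelled X14 double on day 0. The log2 change was 0.70 ± 0.26 (limma adjusted p = 0.0459) and 1.22 ± 0.28 without the X14 libraries of day 0 (limma adjusted p = 0.00104). It was 0.25 ± 0.19 with the length and GC trend removed, which ended the call (limma adjusted p = 0.352). Trim28 was higher on day 3 than on any other day in all 4 cultures, with 2270, 3021, 2317 and 2766 RPM.

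Of the HP1 genes, Cbx1 alone was called from day 0 to day 4. It had 333, 381, 327 and 378 RPM on day 0 and 468, 503, 502 and 573 on day 4, groups without overlap. Its log2 change was 0.53 ± 0.17 (limma adjusted p = 0.0197), and 0.54 ± 0.21 without the X14 libraries of day 0 (limma adjusted p = 0.0393). The size moved to 0.39 ± 0.18 when the length and GC trend was removed, and the call was lost (limma adjusted p = 0.111).

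Cbx5 had 550, 270, 164 and 240 RPM on day 0 and 464, 489, 471 and 453 on day 4. The day 4 libraries lay within a narrow band and the day 0 libraries did not, the library labelled X14 double being the highest of the 8. The log2 change of 0.76 ± 0.31 missed the threshold (limma adjusted p = 0.0651), passed with the replicate block (limma adjusted p = 0.0429), and was 1.24 ± 0.34 without the X14 libraries of day 0 (limma adjusted p = 0.00459). With the trend removed it was 0.55 ± 0.20 (limma adjusted p = 0.0376).

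Cbx3 had 22.7, 18.1, 26.7 and 15.4 RPM on day 0 and 12.8, 20.7, 16.3 and 23.0 on day 4. The ranges overlapped almost wholly, and the log2 difference of -0.19 ± 0.26 did not pass (limma adjusted p = 0.641), nor did -0.19 ± 0.32 without the X14 libraries of day 0 (limma adjusted p = 0.671). Counting error at this depth is large for this gene, with 19 to 41 reads on day 4. Of the 5 rises to day 4, those of Suv39h2, Trim28 and Cbx1 were no longer called when replicate 2, 3 or 4 was left out of every day, with values from 0.67 to 0.91, 0.45 to 0.71 and 0.50 to 0.57.

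**Figure D2:**
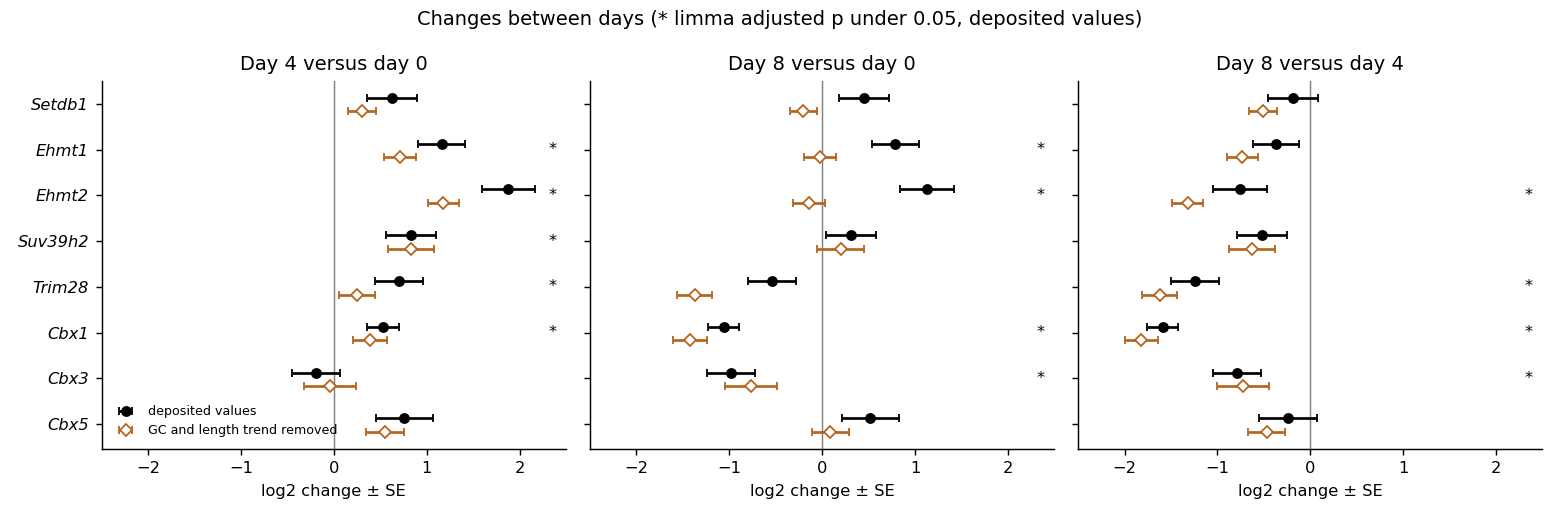
Log2 change (x axis, ± SE) of each gene between days 4 and 0, 8 and 0, and 8 and 4. Black circles are fits to the deposited values, open diamonds fits after a trend on GC content and exon length was removed from each library, and an asterisk marks a limma adjusted p under 0.05 in the deposited values. Ehmt2 rises by 1.88 to day 4, and between days 8 and 0 its change goes from 1.13 to -0.14 once the trend is removed.

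The day of the highest mean differed between the genes. It was day 3 for Trim28 and Cbx3, day 4 for Ehmt2, Suv39h2 and Cbx1, and day 6 for Setdb1, Ehmt1 and Cbx5. Between day 4 and day 8 the levels of 4 genes fell and 0 rose: Cbx1 by 3.01-fold, Trim28 by 2.36-fold, Cbx3 by 1.72-fold and Ehmt2 by 1.69-fold. Of all genes tested 13.4% fell in this comparison and 32.8% were called. A change of at least 2-fold was found for 2 of the 8 (Cbx1 and Trim28) and 24.7% of all genes. The libraries of days 4 and 8 did not overlap for 3 of the 8 and for 30.5% of all genes. The other 4 genes, which include Setdb1 and Cbx5, had log2 differences from -0.52 to -0.19 that did not pass the test.

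Cbx1 went from the day 4 values above to 117, 193, 147 and 250 RPM on day 8. No day 8 library reached the lowest of day 4, and the log2 change was -1.59 ± 0.17 (limma adjusted p = 6.4e-09). The fall continued through the intervening days, with means of 298, 245 and 199 RPM on days 5, 6 and 7. The value was -1.82 ± 0.18 with the length and GC trend removed (limma adjusted p = 1.9e-09).

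Trim28 fell to 551, 914, 600 and 826 RPM on day 8. The groups were again apart, and the log2 change was -1.24 ± 0.26 (limma adjusted p = 4.0e-04). Most of the drop lay between day 3, with a mean of 2593 ± 362 RPM (SD, n = 4), and day 5, with 874 ± 253 RPM.

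Ehmt2 fell to 219, 171, 216 and 106 RPM, below all day 4 libraries, with a log2 change of -0.76 ± 0.29 (limma adjusted p = 0.0432). Its partner Ehmt1, with 112, 121, 70.5 and 77.3 RPM, was lower than on day 4 in all 4 cultures, but the difference of -0.37 ± 0.25 did not pass (limma adjusted p = 0.272). Cbx3 had 9.86, 13.6, 7.83 and 10.7 RPM on day 8 and a log2 change of -0.79 ± 0.26 (limma adjusted p = 0.0185). The Ehmt2 call was lost without replicate 2, 3 or 4, and likewise the Cbx3 call, where the values were -0.84, -0.79 and -0.53 for Ehmt2 and -0.84, -0.69 and -0.68 for Cbx3.

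With the trend on length and GC removed, 7 of the 8 genes were lower on day 8 than on day 4, where 21.9% of all genes then fell. Cbx5 alone did not pass (-0.47 ± 0.20, limma adjusted p = 0.0623), and it did when the replicate block was added (limma adjusted p = 0.0261). Setdb1 was at -0.51 ± 0.15 in that fit (limma adjusted p = 0.00834), Ehmt1 at -0.73 ± 0.17 (9.9e-04) and Suv39h2 at -0.63 ± 0.25 (0.0469).

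Of 64 steps between consecutive days (8 genes by 8 steps), 3 were called, all downward from day 4 to day 5, when 9.44% of all genes fell and 16.0% were called. Ehmt2 had 75.4, 150, 171 and 134 RPM on day 5 (log2 change -1.19 ± 0.29, limma adjusted p = 0.00456). Trim28 had 558, 1154, 813 and 971 RPM (-0.98 ± 0.26, 0.00902), and Cbx1 had 294, 295, 276 and 325 RPM (-0.78 ± 0.17, 0.00146). The groups did not overlap for any of the 3, though the share of all genes without overlap was not computed for this step. The step of Ehmt2 alone was at least 2-fold, as were 10.6% of all genes. Without day 5 replicate 1, the shallowest library, the 3 steps remained called at -0.94, -0.78 and -0.78 (limma adjusted p = 0.0278, 0.0457 and 0.00382). With the replicate block 5 steps were called, the added ones being the same step of Suv39h2 (-0.74 ± 0.24, limma adjusted p = 0.0292) and a rise of Setdb1 from day 5 to day 6 (0.76 ± 0.24, limma adjusted p = 0.0272). With the length and GC trend removed, the fall of Trim28 from day 3 to day 4 was called as well (-0.79 ± 0.19, limma adjusted p = 0.00515), as were that of Suv39h2 from day 4 to day 5 and that of Cbx1 from day 5 to day 6 (-0.53 ± 0.18, limma adjusted p = 0.045).

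Setdb1 had its highest level later, on day 6, in all 4 cultures, with 206, 214, 197 and 195 RPM. The spread on that day was small, 203 ± 8.54 RPM (SD, n = 4), against 124 ± 34.8 RPM on day 5. Ehmt1 had 136, 131, 138 and 130 RPM on day 6, likewise with its highest daily mean there.

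Over the whole course, day 8 against day 0, the methyltransferases and the HP1 genes called moved in opposite directions in the deposited values. Ehmt1 and Ehmt2 were higher and Cbx1 and Cbx3 lower, 2 and 2 of the 8 genes, where 29.2% of all genes rose and 16.5% fell (45.7% called, median change of all genes 0.23). With a minimum of 2-fold, Ehmt2 and Cbx1 were left, beside 35.0% of all genes. Cbx1 fell by 1.06 ± 0.17 on the log2 scale (limma adjusted p = 4.9e-06) and Cbx3 by 0.98 ± 0.26 (limma adjusted p = 0.00254), and in neither did the days overlap. Such separation of days 0 and 8 was found for 3 of the 8 and for 28.1% of all genes. Without the X14 libraries of day 0 the changes were -1.05 ± 0.21 and -0.98 ± 0.32 (limma adjusted p = 1.0e-04 and 0.0115). Both genes remained called under 75th percentile scaling, quantile normalization and with the trend removed (-1.42 ± 0.18 and -0.76 ± 0.28), but the Cbx3 call was lost without replicate 3 (-0.71, limma adjusted p = 0.0979).

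The rise of Ehmt1 (0.79 ± 0.25, limma adjusted p = 0.0107) and of Ehmt2 (1.13 ± 0.29, limma adjusted p = 0.00192) from day 0 to day 8 depended on the length and GC trend, since without it the values were -0.02 ± 0.17 and -0.14 ± 0.17 and neither was called. The trend removed includes shifts between days, and whether these were technical or part of differentiation was not tested. Without the X14 libraries of day 0 the rises were 1.15 ± 0.29 and 1.85 ± 0.29 (limma adjusted p = 0.00147 and 3.6e-06). The calls also depended on individual cultures, the Ehmt1 call being lost without replicate 4 (0.70, limma adjusted p = 0.0688) and the Ehmt2 call without replicate 3 (0.73, limma adjusted p = 0.103). Setdb1 (0.45 ± 0.27, limma adjusted p = 0.172) went to -0.20 ± 0.15 in the same fit. Trim28 was at -0.54 ± 0.26 (limma adjusted p = 0.0942), passed with the replicate block (limma adjusted p = 0.0349), and stood at -1.37 ± 0.19 with the trend removed (limma adjusted p = 3.2e-07). Its level against day 0 rested on the X14 libraries of that day, however, as the difference without them was -0.02 ± 0.28. Suv39h2 (0.31 ± 0.27, limma adjusted p = 0.377) and Cbx5 (0.52 ± 0.31, 0.164) did not pass with all libraries. Without those of X14 on day 0, 7 genes were called, Setdb1 (0.97), Suv39h2 (0.77) and Cbx5 (1.0) being higher as well, where 49.7% of all genes were called. Day 0 was then X18 alone and day 8 both lines, so these changes mix line with day.

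**Figure D3:**
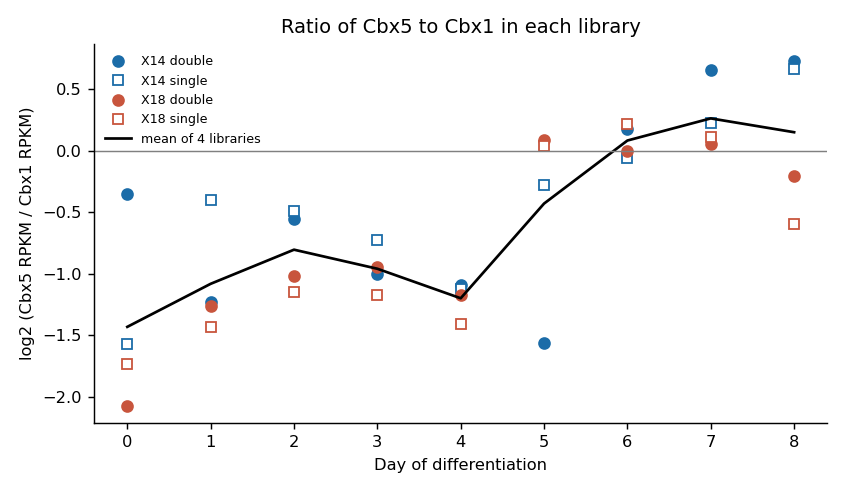
Log2 ratio of Cbx5 RPKM to Cbx1 RPKM (y axis) in each library against the day, with the mean of the 4 libraries as a line. Blue is X14, red is X18, circles are double and squares single. All 4 libraries of day 4 lie between -1.41 and -1.09, and all 4 of day 7 above 0.

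As Cbx1 fell and Cbx5 did not pass the test in either direction, the balance between these HP1 genes was computed per length. The pair was chosen for these values, so the ratio is given as a description, with no test. The ratio of Cbx5 to Cbx1 RPKM on day 4 was 0.375 to 0.470 in the 4 libraries, and on day 7 it was 1.04 to 1.58. Day 8 was split by line, with ratios of 1.66 and 1.59 in X14 and 0.87 and 0.664 in X18. The length trend of these libraries was split likewise, with r of 0.50 and 0.44 in X14 and -0.40 and -0.51 in X18. Cbx5 followed that trend (r = 0.84) and Cbx1 did not (-0.23), but its part in the split was not tested. The log2 ratio was -1.20 ± 0.15 on day 4 (SD, n = 4) and 0.15 ± 0.65 on day 8, a difference of 1.35, with day 8 higher in 4 of 4 cultures. The difference was again 1.35 with the trend removed. On day 0 the log2 ratio was -1.43 ± 0.75, lower than on day 8 by 1.58 and in 4 of 4 cultures, and lower than on day 4 by 0.23 and in 3 of 4, the exception being the library labelled X14 double. Day 5 was mixed, with 3 libraries between -0.28 and 0.09 and replicate 1, the shallowest, at -1.56. RPKM ratios between genes also depend on the exon models used, so that the change over days is better determined than the ratio itself.

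The libraries labelled double and single were compared with day and line as covariates. Only 2 cultures carry each label, so p-values cover the spread between libraries of different days and not between cultures. Of the 8 genes, 3 were lower in double than in single libraries and 0 higher, where 8.62% of all genes were lower and 15.7% called. Trim28 differed by -0.42 ± 0.10 on the log2 scale, Suv39h2 by -0.38 ± 0.11 and Cbx1 by -0.28 ± 0.06. None reached 2-fold, as 2.99% of all genes did. The count was 2 without replicate 1 and 0 without replicate 2, 3 or 4, where no share of all genes is given.

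Cbx1 had 117 to 502 RPM (median 330) in the 18 double libraries and 193 to 573 (median 356) in the 18 single libraries. Between libraries of the same line and day the difference was small but of 1 sign, from -0.76 to -0.01, with Cbx1 lower in double in 18 of 18 pairs (limma adjusted p = 0.00233). On day 0, where the X14 libraries went against their labels, the pair differences were -0.19 in X14 and -0.21 in X18. The count was 17 of 17 without the X14 pair of day 0, and would be 17 of 18 with the labels of that pair exchanged. The pairs are days of the same cultures and not independent, and the share of all genes with such counts was not computed. Pair counts here and below are therefore not read as particular to these genes.

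Trim28 had 532 to 2317 RPM (median 1024) in double and 826 to 3021 (median 1324) in single libraries, and was lower in double in 17 of 18 pairs (limma adjusted p = 0.00314). The exception was the pair of X14 on day 0, at 0.55, so the count would be 18 of 18 with its labels exchanged. Over days 1 to 8 the pairs averaged -0.64 ± 0.32 in X14 and -0.28 ± 0.11 in X18 (SD, n = 8 days). Suv39h2 was lower in double in 16 of 18 pairs, or 17 of 18 with those labels exchanged (limma adjusted p = 0.0183 as labelled), with averages of -0.48 ± 0.37 and -0.35 ± 0.22 over these days.

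Without day 0 the count of genes lower in double rose to 6, where 12.8% of all genes were lower. Cbx3 (-0.38 ± 0.11, limma adjusted p = 0.00951), Ehmt1 (-0.29 ± 0.10, 0.0443) and Cbx5 (-0.33 ± 0.12, 0.0481) were then added. Cbx3 was lower in double in 16 of 16 pairs of days 1 to 8. Ehmt2 showed no common direction, being lower in 7 of these 16 pairs, with averages of -0.28 ± 0.56 in X14 and 0.25 ± 0.38 in X18.

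X-linked genes of the pathway stood on the other side, as did X-linked genes as a whole. Apart from X14 on day 0, the latter stood at 0.13 to 0.69 relative to autosomal genes in double libraries. In single libraries they stood at -0.55 to -0.16. The following differences are therefore not read as particular to the pathway. Suv39h1, the paralogue of Suv39h2, was higher in double libraries (0.56 ± 0.10, limma adjusted p = 3.2e-04), as were the H3K9 demethylase Phf8 (0.76 ± 0.17, 0.00176) and the chromatin remodeller Atrx (0.53 ± 0.15, 0.0129). Other states moved with the label too: 3 of 7 ES cell markers and 2 of 5 trophoblast and epithelial markers (Gata3 and Tfap2c) were called higher in double, and 2 of 4 primed state markers, 1 of 5 neural markers (Nes) and 2 of 8 proliferation genes lower. Of all genes, 7.06% were higher in double and 8.62% lower. The part of these markers and proliferation genes in the lower levels of Trim28, Suv39h2 and Cbx1 was not tested.

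**Figure D4:**
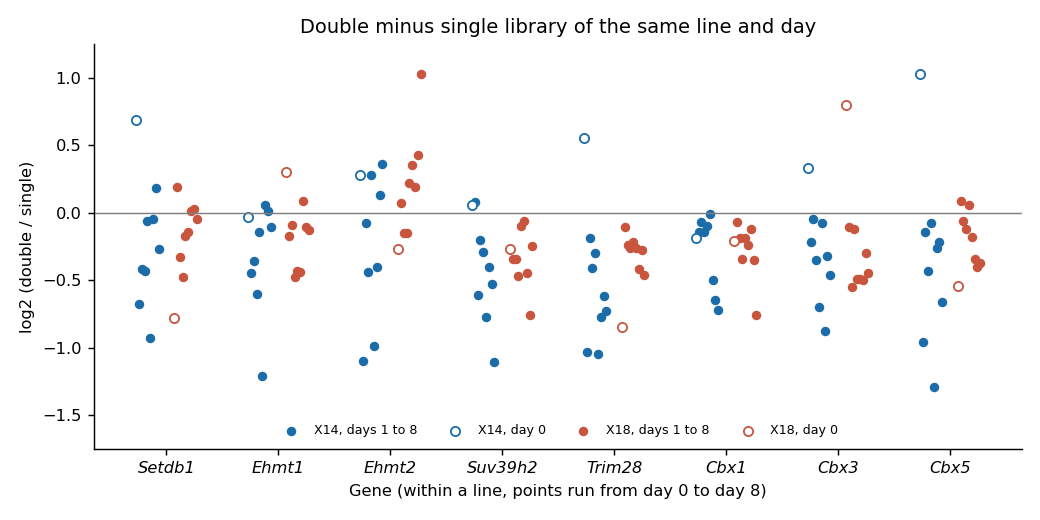
Difference of the double minus the single library of the same line and day (log2, y axis) for each gene. Blue points are X14 and red points X18, running from day 0 at the left to day 8 at the right within a line, and open circles are day 0. As labelled, Cbx1 lies below 0 in all 18 pairs and Trim28 in all but the X14 pair of day 0. With the labels of that pair exchanged, the counts would be 17 and 18 of 18. The share of all genes with such counts was not computed.

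Whether the label difference changed between days 1 to 4 and days 5 to 8 was tested as an interaction. None of the 8 genes passed in limma (background 3.28% called), 1 of them having an unadjusted p under 0.05 (Cbx1, -0.26 ± 0.13, limma adjusted p = 0.323). Between the lines X18 and X14 none passed either, with 0.0205% of all genes called. Setdb1 and Ehmt1 had unadjusted p under 0.05 there, with X18 minus X14 at -0.28 ± 0.11 and -0.24 ± 0.10 (limma adjusted p = 0.229 and 0.242).

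Genes that act with the 8 were read from 3 further lists. Among 17 tested cofactors and other H3K9 methylation genes, 4 rose and 2 fell from day 0 to day 4. Of all genes tested, 16.3% rose and 9.42% fell. The median change of the list was 0.41, beside 0.12 for all genes. Pphln1, a subunit of the HUSH silencing complex, rose by 2.48 ± 0.38 (limma adjusted p = 7.4e-06), Trim33, a relative of Trim28, by 1.57 ± 0.36 (0.00131), and Cdyl, a chromodomain protein, by 0.90 ± 0.21 (0.00135). Zfp57, the KRAB zinc finger protein that recruits Trim28 to imprinted regions, fell by 1.39 ± 0.23 (1.8e-05), from 216 ± 42.2 to 81.2 ± 4.80 RPM.

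From day 4 to day 8, 6 of these 17 genes fell and 0 rose (median -0.61, all genes 0.10), where 13.4% of all genes fell and 19.3% rose. Tasor, the scaffold of the HUSH complex, fell by 1.79 ± 0.31 (limma adjusted p = 3.1e-05), Cdyl by 1.38 ± 0.21 (3.0e-06), Zfp57 by 1.22 ± 0.23 (7.4e-05) and Smarcad1, a chromatin remodeller that binds Trim28, by 1.20 ± 0.22 (5.9e-05). By day 8 Zfp57 was at 36.5 ± 12.8 RPM, with a change from day 0 of -2.61 ± 0.23 (limma adjusted p = 3.0e-11). In the same interval 4 of 8 proliferation genes were called lower and 0 higher, among them Mcm5 (-1.09 ± 0.18), Mcm2 (-1.15 ± 0.23) and Pcna (-0.89 ± 0.21). The list did not move as one, as 6 of the 8 were lower by sign and 2 higher. Mki67, without a call, had 150 ± 25.9 RPM on day 4 and 279 ± 114 on day 8. The part of proliferation in the falls of Cbx1, Trim28, Cbx3 and Ehmt2 was not tested.

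Of the 10 H3K9 demethylases tested, 4 rose and 1 fell from day 0 to day 4 (median 0.69), beside 16.3% and 9.42% of all genes. Kdm4c, a demethylase of trimethylated H3K9, rose by 1.26 ± 0.17 (limma adjusted p = 9.4e-07) and then fell by 1.94 ± 0.17 to day 8 (limma adjusted p = 1.2e-10). Jmjd1c rose by 2.41 ± 0.44 and fell by 1.17 ± 0.44 (limma adjusted p = 1.0e-04 and 0.0396), while Kdm3a, which removes mono- and dimethylation, fell by 1.07 ± 0.16 to day 4 (limma adjusted p = 3.4e-06). Phf2 rose by 2.30 ± 0.56 from day 4 to day 8 (limma adjusted p = 0.00172).

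Of the 10 HP1 partners and heterochromatin proteins, 2 rose to day 4, beside 16.3% of all genes. They were Daxx, a histone H3.3 chaperone (0.80 ± 0.21, limma adjusted p = 0.00514), and Chaf1a, a subunit of the CAF-1 chaperone (1.21 ± 0.37, 0.0155). From day 4 to day 8, Hp1bp3, a linker histone-like protein, rose by 1.51 ± 0.26 (limma adjusted p = 3.8e-05), while Lbr, the lamin B receptor, fell by 0.76 ± 0.16 (4.9e-04) and Chaf1b by 0.70 ± 0.19 (0.00382). The remaining 7 did not pass.

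**Figure D5:**
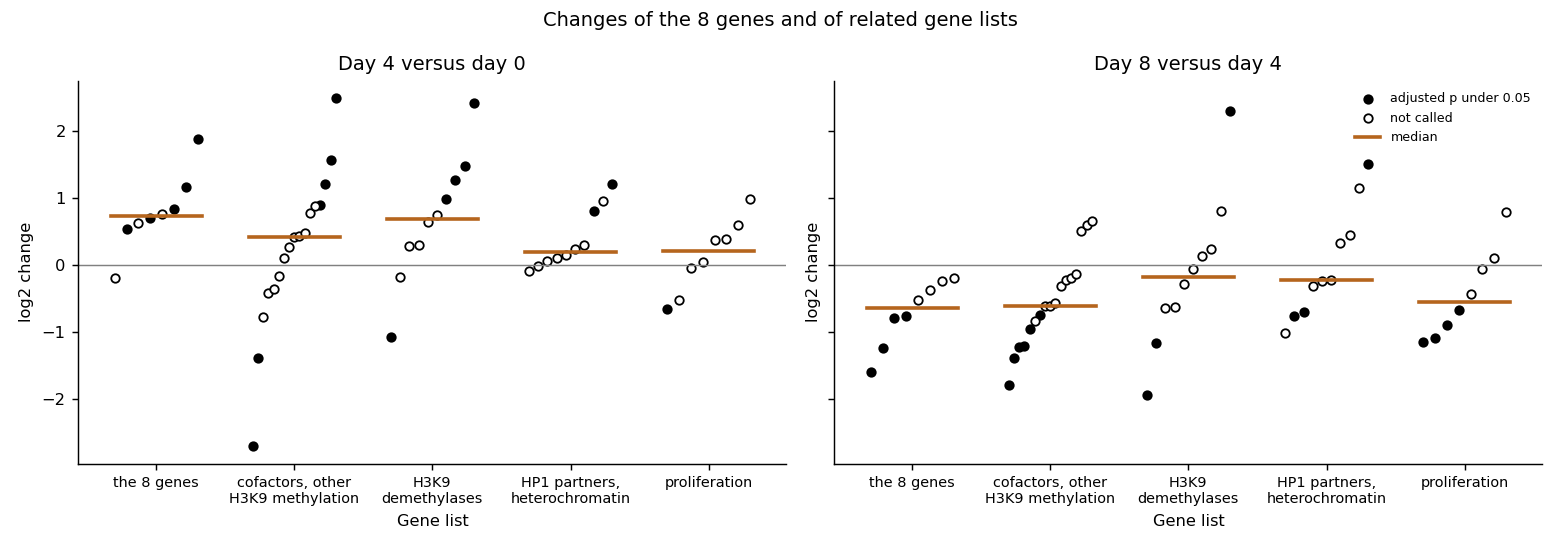
Log2 change (y axis) of each gene of the 5 lists between days 4 and 0 (left) and days 8 and 4 (right). Filled points have a limma adjusted p under 0.05, open points do not, and the bar is the median of the list. From day 4 to day 8, the 6 cofactors and the 4 proliferation genes that were called lie below 0, as do the 4 of the 8 genes described here.

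Across the 36 libraries, the genes closest to each member in log2 level were found among 6108 genes of at least 30 RPM on average. Trim28 was most like Rcc2 and Hspa4 (Pearson r = 0.95 for both) and Cbx1 most like Mthfd2 and Chac1 (0.94 for both), while Cbx5 was most like Khsrp and Anapc1 (0.94 for both). Setdb1 was closest to Setd1a and 2610507B11Rik (0.93 for both), Ehmt1 to Plekha5 and Zfp609 (0.91), and Ehmt2 to Sltm and Ipo4 (0.88). Suv39h2 was closest to Rps6ka2 and Zfp36l2 (0.81), and Cbx3 to Zfp141 (0.84) and Cth (0.83). Among the 28 pairs of members, Setdb1 and Cbx5 were the most alike (0.89), then Setdb1 and Ehmt1 (0.85), and Ehmt1 and Cbx3 the least (-0.12). These values describe libraries that share days, depth and the length trend.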

How the data were processed

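The authors sequenced single-end reads of 75 bp, trimmed them with trim_galore, mapped them to mm10 (TopHat2 2.0.12 in the submitters' processing notes, tophat or hisat2 in the methods) and quantified genes in SeqMonk. The annotation version and the use of strand are not given in the sources used here. The deposited values are log2 numbers. Although the authors call them RPM, they carry the exon length and are log2 RPKM, with 0.9 read written for a gene without reads. Read back in this way, 100% of them gave whole reads (tolerance 0.001 read). RPM values were computed from these reads. All 36 columns were mapped to a library.

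Genes with at least 1 RPM in at least 4 libraries were tested on the deposited log2 values with limma 3.58.1 (lmFit, eBayes with trend) in R 4.3.3, with day as factor and all 36 libraries in one fit. P-values are two-sided and adjusted by Benjamini-Hochberg over 14612 genes, and a gene was called at an adjusted p under 0.05. The scripts were also run on simulated counts with known changes. These had independent libraries and no length or GC trend, so they tested the code and not the calls given here. Replicate numbers denote the same line and label on every day, so they pair the samples by label: deviations of same-numbered libraries correlated at 0.17 to 0.29 on average, against -0.08 for different numbers on different days, and 27 of 36 libraries correlated best with their own number. Nothing states that libraries of a day came from separate experiments beyond these 4 cultures, so p-values measure the spread between them. The lowest chi-squared per gene between libraries of a day was 1.24, so none were merged.

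The 8 genes and all gene lists were chosen by name, with earlier results of these data known. The text names the 8 genes, up to 4 genes per list with the smallest adjusted p, and the 2 genes with the highest r to each member. Alternatives were no filter or a mean of at least 10 RPM, log2(RPM + 1), 75th percentile and quantile scaling, limma-voom on the recovered reads, a 2-fold minimum, the replicate block, each replicate left out, fewer days or lines, and 4 added after seeing the data: a spline (4 degrees of freedom) on GC content and exon length removed from each library, the same with the block, and the fits without the X14 libraries of day 0 or without day 5 replicate 1. Exon matches to other genes were sought at 97% identity over at least 75 bases.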

Additional observations from a re-analysis of the deposited data

Results flagged for a closer look

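Among 72 groups of 4 libraries (8 genes by 9 days), 3 held a library far from the others by Dixon's criterion at 95%, where chance gives about 1 in 20. Setdb1 on day 7 had 158 RPM in replicate 1 against 136, 139 and 140 in the others, Ehmt1 on day 7 had 97.7 RPM in replicate 3 against 104, 105 and 105, and Cbx5 on day 1 had 592 RPM in replicate 2 against 276, 294 and 304. That last library had a length trend of r = 0.53, and its part in the value was not tested.

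Cbx3 went down from day 0 to day 4 in the libraries labelled double (-0.83 in X14 and -0.71 in X18, log2) and up in those labelled single (0.20 and 0.58), a mean difference of -1.16. This difference was not tested. It includes the X14 libraries of day 0, which went against their labels, and rests on 18 to 49 reads per library on day 0.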

How the results depend on the processing

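Counts of members called moved by more than 1.5 times in these alternatives. For day 4 against day 0 the 5 calls became 3 with 75th percentile scaling or quantile normalization, 2 with only the 2 days compared, 2 with a 2-fold minimum, and 2 to 7 with a replicate left out. The main fit called 3763 of all 14612 genes, the scalings 3760 and 3551, and the fit on 2 days 2032. At the 2-fold minimum 18.6% of all genes passed, and 1889 to 5168 genes were called with a replicate left out. For day 8 against day 0 the 4 calls became 2 with only the 2 days compared, 2 with a 2-fold minimum, 7 without the X14 libraries of day 0, and 2 to 6 with a replicate left out. Over all genes the main fit called 6680, the fit on 2 days 4294, and the fit without those X14 libraries 7269. With a replicate left out 4533 to 6672 were called, and 35.0% passed the 2-fold minimum. For day 8 against day 4 the 4 calls became 7 with the GC and length trend removed, 8 with the replicate block and the trend removed, 2 with a 2-fold minimum, and 2 to 4 with a replicate left out. The share of all genes was 32.8% in the main fit, 39.0% and 42.2% in these trend fits, and 24.7% at the 2-fold minimum. With a replicate left out 3304 to 4045 genes were called, against 4789 in the main fit. The 3 steps between consecutive days became 5 with the replicate block, 6 with the trend removed, 10 with both, 7 without the X14 libraries of day 0, 1 with a 2-fold minimum, and 2 to 5 with a replicate left out. No share of all genes is given for the steps in these alternatives, so the step counts are not read as particular to the 8 genes. For double against single the 3 calls became 6 without day 0, 6 with the trend removed, 5 without the X14 libraries of day 0, 0 with a 2-fold minimum, and 0 to 2 with a replicate left out. For the change of the label difference 0 calls became 1 with the trend removed, where 5.42% of all genes were called, against 3.28% in the main fit. The cause of these shifts was not tested, though the fits on 2 days or without a replicate have fewer samples.

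Signs turned, always without a call in the alternative, for Cbx3 from day 0 to day 4 (-0.45 to 0.02 with a replicate left out), and from day 0 to day 8 for Setdb1 (-0.20), Ehmt1 (-0.02) and Ehmt2 (-0.14) with the trend removed, with or without the replicate block, and for Suv39h2 with quantile normalization (-0.12). Ehmt2 in double against single, at -0.01, was 0.02 under either scaling, -0.22 to 0.19 with a replicate left out, 0.25 in X18 without day 0 and 0.14 with the trend removed. In X18 against X14 it was -0.34 to 0.07 with a replicate left out, 0.03 without day 0 or without the X14 libraries of day 0, and 0.04 with the trend removed. In the change of the label difference Ehmt1 was -0.05 to 0.27 and Suv39h2 -0.54 to 0.03 with a replicate left out. The replicate block changed no call of a member between days 8 and 4, lines or labels, and the report gives those it changed. The median change of all genes from day 0 to day 8 was 0.23, against 0.02 with 75th percentile scaling, -0.09 with quantile normalization and -0.11 with the trend removed, and the share of higher among called genes was 64%, 53.7%, 48.5% and 43.7%. Depth limits Cbx3 and Suv39h2 most.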
